A study of Mus musculus with 38 samples.

Results

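The cells described here were the 507 cells of the day 7 JGES sample without BMP4 that the deposited table names as endothelial cells. They were picked by the sample and annotation written into each cell's name, and they made up 5.84% (95% exact Clopper-Pearson interval 5.35 to 6.35) of the 8685 cells of that sample and were 507 of the 20020 cells of both single-cell samples. The question was whether these cells carried the transcripts of endothelium, of blood or of both, in comparison with the other annotations of the same sample. They carried both: a group of 104 cells was endothelial-like, groups of 162 and 93 cells had high summed levels of red-cell transcripts, carried by some of their cells, and the latter also of myeloid ones, and the remaining 83 and 65 cells held few blood transcripts and only some of the endothelial genes, so the label described these cells only in part.

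In the study, mouse embryonic fibroblasts were turned toward other fates by retroviruses carrying the transcription factors Jdp2, Glis1, Esrrb and Sall4, together called JGES. The fibroblasts came from mid-gestation embryos of OG2 by 129S4/SvJaeJ crosses, and heads, limbs, tails and inner organs were not used. Both single-cell cultures received the JGES viruses and were then kept to day 7 in iCD3 medium, which held vitamin C, mouse LIF, bFGF, the GSK3 inhibitor CHIR99021, the DOT1L inhibitor SGC0946, an LSD1 inhibitor and the ROCK inhibitor Y27632. The sample called BMP4- had nothing further, and the sample called BMP4+ also had 10 ng/ml BMP4 throughout. Each condition was a single 10x Genomics sample, so no p-value is given below. Cells of 1 culture are not replicates of a condition, and the annotation was made from the same counts, so that the values that follow describe these cells and are no test of them.

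Endothelial cells line vessels, are held together by cell-type-specific junctions and depend on VEGF signals through the receptor Kdr. In the early embryo and yolk sac, endothelium and the first blood cells arise side by side from Kdr-positive mesoderm, under transcription factors used by both lineages such as Etv2, Tal1 and Lmo2. Primitive red cells of the yolk sac make embryonic globins, whereas the factors Runx1 and Gfi1b act in the step by which some endothelial cells become blood cells.

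Altogether the 507 cells gave 8420004 UMIs (unique molecular identifiers, which count molecules), with 5764 to 51256 and a median of 15083 per cell. The median was 11892 in the 6211 cells annotated as intermediate, 15444 in the 1825 pluripotent cells, 11562 in the 142 cells named ParE and 21763 in the 1453 endothelial-labelled cells of the BMP4+ sample. Only 2 cell barcodes were found in both samples, and 0 of them belonged to the 507 cells. Levels are UMIs summed over the cells of an annotation and given per 1000000 UMIs of those cells (CPM), with exact Poisson intervals at 95% that cover counting error only. A gene with 0 UMIs in the 507 cells could still be present at up to 0.356 CPM, or in up to 0.592% of cells with a UMI. A gene was counted as higher or lower at a CPM ratio of at least 4 in either direction, among genes with at least 10 UMIs over the cells compared.

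The 5 endothelial marker genes used to check the label were all higher in these cells than in the intermediate cells. *Kdr*, the main VEGF receptor (mm10 chr5:75932827-75978458, minus strand), stood at 141 CPM (134 to 149.7), against 3.55 in intermediate, 1.45 in pluripotent and 1.59 in ParE cells. *Cdh5*, the VE-cadherin of endothelial junctions (chr8:104101625-104144511, plus strand), stood at 55.5 CPM (50.5 to 60.7), against 0.697 in intermediate and 0.640 in pluripotent cells. *Cd34*, a surface sialomucin of endothelium and blood progenitors (chr1:194938819-194961279, plus strand), stood at 38.1 CPM against 0.505 and 0.472 in the same order. These 3 genes stood far lower in every other annotation given. *Gngt2*, a G protein gamma subunit (chr11:95837216-95845734, plus strand), reached 60.9 CPM against 1.89 in intermediate cells. *Pecam1*, an adhesion molecule of endothelium (chr11:106654217-106750628, minus strand), reached 31.8 CPM against 2.33 in intermediate cells, but pluripotent cells held 27.4 CPM. *Pecam1* therefore set the labelled cells apart from intermediate cells and hardly from pluripotent cells.

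No marker was detected in every labelled cell. *Kdr* had a UMI in 58.97% of the 507 cells, and in 34.1% (30 to 38.4) after each cell was thinned to 4000 UMIs, against 1.09% of thinned intermediate cells. The thinned share for *Cdh5* was 15.8% (12.7 to 19.2) against 0.258% of intermediate cells, and the unthinned share was 34.1%. *Cd34* had a UMI in 24.9% of cells unthinned and in 10.5% thinned, against 0.209% of thinned intermediate cells. The endothelial label thus covered many cells in which the junction gene itself was not detectable at this depth.

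**Figure D1:**
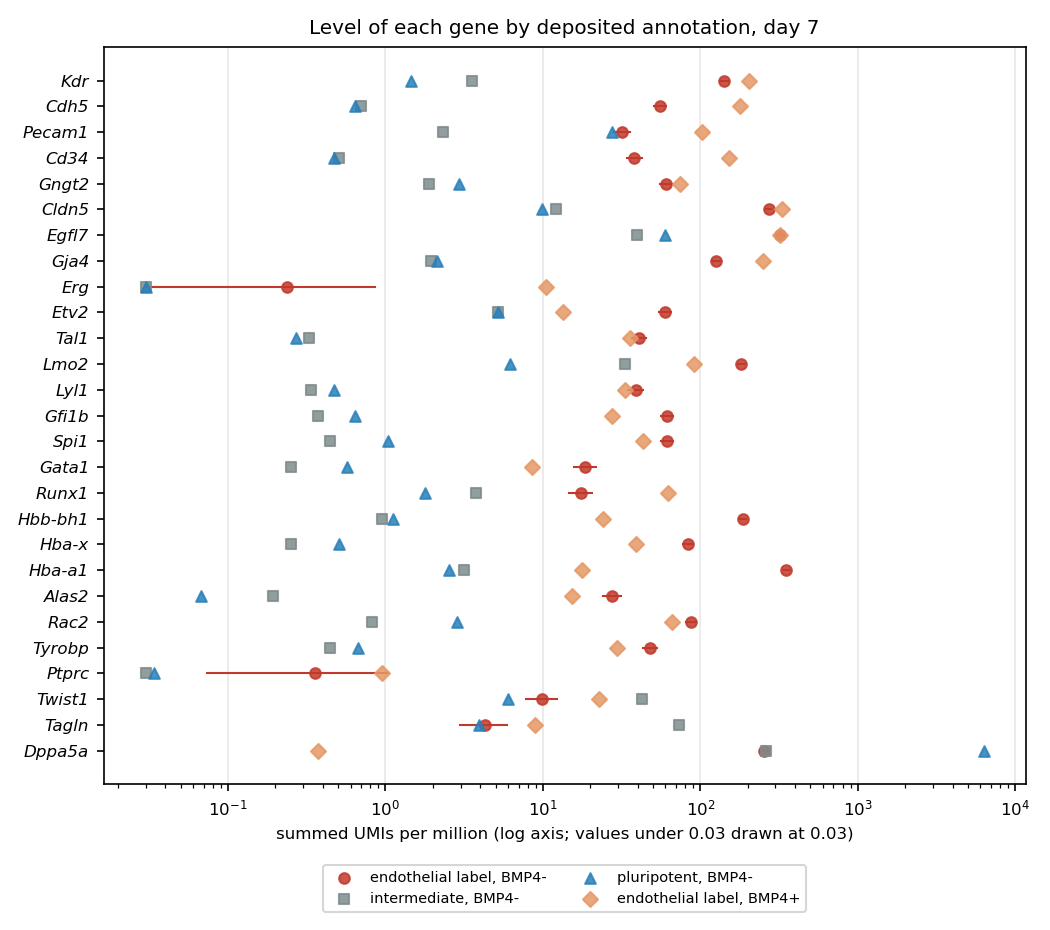
Level of 27 genes (rows) in CPM of summed UMIs on a log axis, with values under 0.03 drawn at 0.03; symbols stand for annotations and red lines for exact 95% Poisson intervals of the endothelial-labelled BMP4- cells. *Kdr* stood at 141 and *Hbb-bh1* at 186 in these cells, against 3.55 and 0.950 in intermediate cells, whereas *Dppa5a* stood close in both (253 and 261).

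Of 15463 genes with enough UMIs, 496 were at least 4-fold higher in the labelled cells than in all other BMP4- cells, which is 3.21% of them, and 866 (5.6%) were at least 4-fold lower. The median log2 ratio over all these genes was -0.10. Against intermediate cells alone, 491 of 15079 genes (3.26%) were higher and 659 (4.37%) were lower. The gene lists described next are read against these shares. All were chosen with earlier results of these counts known, and the labelled cells were defined on the same counts, so a list count is a description only.

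Of 24 pan-endothelial genes, 23 had enough UMIs and 18 of them were at least 4-fold higher than in the other BMP4- cells, with a median log2 ratio of 3.19 and none lower. The list summed to 1453 CPM, against 119 in intermediate and 144 in pluripotent cells. The 142 ParE cells, a small part of the pooled reference, came closer at 464 CPM. The secreted vessel factor *Egfl7* was the highest of these genes in level at 321 CPM against 39.5 in intermediate cells, and the tight junction gene *Cldn5* stood at 271 against 12.05. Both were found in most of the cells, *Cldn5* and *Egfl7* with a UMI in 62.1% and 91.7%. *Ramp2*, the receptor partner for adrenomedullin, reached 145 CPM against 9.91, and *Eng*, a TGF-beta co-receptor, reached 74.2 against 7.43. *Esam*, another junction molecule, stood at 58.9 CPM against 1.67. *Tie1* and *Tek*, the angiopoietin receptor pair, were lower in level at 16.98 and 8.08 CPM, with log2 ratios of 5.34 and 3.61. *Erg*, an ETS factor of mature endothelium, had 2 UMIs in all 507 cells, whereas the BMP4+ endothelial-labelled cells held 10.4 CPM. *Vwf*, the clotting factor stored by mature endothelium, had a log2 ratio of 0.62.

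Genes of vessel type and of the VEGF pathway were mixed. Of 13 measured arterial and tip genes 2 were higher, led by the gap junction gene *Gja4* at 126 CPM (log2 ratio 5.96) and the Notch ligand *Dll4* at 3.56 CPM (3.39). The second arterial connexin, *Gja5*, had 0 UMIs. Of 8 venous and lymphatic genes 4 were higher and 1 was lower. Among them, *Flt4*, the receptor for VEGF-C, stood at 56.3 CPM against 2.03 in intermediate cells, and *Aplnr*, the apelin receptor of mesoderm and veins, at 46.1 against 2.85. The venous nuclear receptor *Nr2f2* went the other way, at 10.6 CPM against 38.3 in intermediate cells. Of 13 VEGF and angiopoietin pathway genes 5 were higher and 1 was lower, and the ligand *Vegfa* had a log2 ratio of -0.34. The 5 were the receptor genes *Kdr*, *Flt1*, *Flt4*, *Tek* and *Tie1*, the co-receptors *Nrp1* and *Nrp2* had log2 ratios of 0.68 and 0.46, and the lower gene was the ligand *Pgf*.

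Of 14 measured transcription factors shared by endothelium and blood, 11 were at least 4-fold higher and none lower, with a median log2 ratio of 3.73. The list summed to 603 CPM, against 77.8 in intermediate, 29.3 in pluripotent and 210 in ParE cells. *Lmo2*, the adaptor of the Tal1 complex, was the highest in level at 182 CPM against 33.2 in intermediate cells. *Tal1*, the bHLH factor needed for both the first blood cells and hemogenic endothelium, stood at 40.9 CPM (36.7 to 45.4) against 0.325 in intermediate and 0.270 in pluripotent cells. *Etv2*, the transient ETS factor at the start of both lineages (chr7:30633616-30635852, minus strand), stood at 59.9 CPM (54.7 to 65.3) against 5.19 and 5.19. All 3 were therefore well above the intermediate cells, *Tal1* by the widest ratio. The SoxF factors *Sox7*, *Sox17* and *Sox18*, which act in early vessels, stood at 54.9, 12.6 and 30.2 CPM, with log2 ratios of 5.87, 1.83 and 6.0. *Lyl1*, the paralog of Tal1, reached 38.8 CPM, and *Gata2*, a factor of hemogenic endothelium and progenitors, reached 31.00.

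Blood lineage factors were higher in the labelled cells as well. Of 14 factors 11 were at least 4-fold higher and none lower, with a median log2 ratio of 4.42. *Gfi1b*, a repressor of erythroid and megakaryocyte cells and of the endothelial program (chr2:28609450-28621982, minus strand), stood at 61.2 CPM (55.99 to 66.7) against 0.373 in intermediate and 0.640 in pluripotent cells. *Spi1*, which encodes the myeloid factor PU.1, stood at 61.5 CPM (56.3 to 67.1) against 0.445 and 1.04. *Gata1*, the erythroid and megakaryocyte factor, stood at 18.5 CPM against 0.252 and 0.573. Factors of opposed blood lineages were thus present in the same set of cells. *Runx1*, required for blood to emerge from endothelium, was lower in level at 17.3 CPM against 3.74 in intermediate cells, and *Cebpe*, a granulocyte factor, reached 29.1 CPM in only 9.27% of cells.

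Red-cell genes included the gene with the highest ratio among genes detected in 10% or more of the labelled cells. Of 15 erythroid genes with enough UMIs 11 were higher and none lower, with a median log2 ratio of 4.10. *Hbb-bh1*, an embryonic beta-like globin (chr7:103841637-103843164, minus strand), stood at 186 CPM (177 to 195) against 0.950 in intermediate and 1.11 in pluripotent cells. The embryonic globins *Hba-x* and *Hbb-y* stood at 83.1 and 42.8 CPM. *Hba-a1* stood at 352 CPM, although this gene and *Hba-a2* (15.2 CPM) are nearly identical copies between which reads may have been divided. The adult beta globins *Hbb-bs* and *Hbb-bt* had 2 UMIs and 1 UMI. *Slc4a1*, the band 3 anion exchanger, had 13 UMIs and *Hemgn* had 0. *Alas2*, the first enzyme of heme synthesis in red cells, stood at 27.4 CPM (log2 ratio 7.37), and *Klf1*, the erythroid factor, at 7.96.

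White-cell genes were also higher, and several genes of mature myeloid cells were measured in few cells. Of 8 measured pan-leukocyte genes 7 were higher, led in level by the GTPase gene *Rac2* at 86.9 CPM (log2 ratio 6.01), with *Laptm5* at 42.04 and the surface gene *Cd52* at 37.4. *Ptprc*, which encodes CD45 of nearly all leukocytes, had only 3 UMIs. Of 8 macrophage genes 5 were higher, and *Tyrobp*, a signalling adaptor of myeloid cells, reached 48.1 CPM. *Lyz2*, the lysozyme of macrophages and granulocytes, stood at 10.8 CPM with all of its 91 UMIs in 7 cells, and *Fcer1g*, an Fc receptor chain, at 5.23 in 16 cells. The macrophage genes *Adgre1*, *Itgam*, *Cx3cr1* and *Ctss* had 0 UMIs. Of 8 mast cell and granulocyte genes 7 were higher, with the proteinase gene *Prtn3* at 10.3 CPM and *Cma1*, *Tpsb2*, *Ms4a2* and *Ctsg* at 0 UMIs. *S100a8*, a neutrophil calcium-binding protein gene, stood at 11.2 CPM in 8 cells and *Prg2*, an eosinophil granule protein gene, at 6.65 in 6 cells. Of 8 megakaryocyte genes 5 were higher, with the integrins *Itga2b* and *Itgb3* at 17.9 and 12.5 CPM, whereas the platelet genes *Ppbp*, *Gp1ba*, *Gp1bb*, *Gp6* and *Treml1* had 0 UMIs. Of 3 measured lymphoid genes none was higher and 1 was lower. Genes of finished myeloid cells were thus measured in a small number of cells, whereas the named platelet and mast cell genes had 0 UMIs.

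The labelled cells differed from intermediate cells in mesenchymal genes and hardly in pluripotency genes. Of 16 fibroblast genes 8 were at least 4-fold lower than in intermediate cells and none higher. *Tagln*, an actin-binding protein of contractile fibroblasts, stood at 4.28 CPM against 72.9, and the matrix protein gene *Col1a1* at 4.87 against 37.98. *Twist1*, a mesenchymal factor, stood at 9.86 CPM against 42.9, and *Dcn* had 0 UMIs. Of 20 pluripotency genes 13 were lower than in all other BMP4- cells, but 0 were past 4-fold in either direction against intermediate cells, where the median log2 ratio was -0.05. Of 6 BMP target genes, 3 were at least 4-fold lower than in intermediate cells, with *Id1*, *Id2* and *Id3* at 41.1, 30.5 and 105 CPM against 202, 245 and 446. Of 15 cell cycle genes, 10 stress and immediate early genes and 4 delivered factors none was past 4-fold. Of 12 primitive endoderm genes 2 were higher and 1 was lower than in intermediate cells, and of 13 trophoblast and epithelium genes 0 were higher and 2 lower.

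*Dppa5a*, a gene of pluripotent cells, had a UMI in 94.5% of the labelled cells at 253 CPM, beside 261 CPM in intermediate and 6305 in pluripotent cells. Its level in labelled cells was 4.01% of that in pluripotent cells, and in intermediate cells 4.14%. For *Utf1* and *Zfp42*, further pluripotency genes, the percentages in labelled cells were 3.72 and 3.08, and in intermediate cells 4.52 and 2.63. For *Tdh*, *Dppa3* and *Gdf3* they were 4.28, 3.77 and 3.49 against 7.56, 5.28 and 5.96, and for *Nanog* 7.01 against 5.73. The part of free RNA in these levels was not tested. In the opposite direction, *Hbb-bh1*, *Gfi1b* and *Tal1* in intermediate cells stood at 0.511%, 0.609% and 0.795% of their level in labelled cells, and *Cldn5*, *Kdr* and *S100g* at 4.44%, 2.51% and 1.84%.

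The 25 genes with the highest ratio over the other BMP4- cells held both blood and vessel genes. In order, they were *Hbb-bh1*, *Alas2*, *Art4*, *Csf2rb*, *Svs5*, *Gfi1b*, *Tal1*, *Hba-a1*, *Grap2*, *Spi1*, *Lyl1*, *Ctse*, *Tyrobp*, *Cd34*, *Gimap1*, *Stab1*, *Cdh5*, *Rac2*, *Sox18*, *Gja4*, *Sox7*, *Fgf3*, *Grap*, *Scube2* and *Fgd5*, with log2 ratios from 7.56 down to 5.71. *Art4* encodes the Dombrock blood group antigen of red cells, *Grap2* a signalling adaptor of blood cells and *Fgd5* an exchange factor of endothelium. *Csf2rb*, the shared receptor chain for IL-3, IL-5 and GM-CSF, stood at 40.4 CPM against 0.277 in intermediate cells. *Stab1*, a scavenger receptor of sinus endothelium and macrophages, stood at 22.4 against 0.228. *Svs5*, a seminal vesicle secretion gene, does not belong to either lineage, and it stood at 409 CPM with 82.9% of its UMIs in 10 cells. The 15 genes with the lowest ratio ran from *Gm26564* at -4.26 to *1700013H16Rik* at -3.11. Most of them, such as *Lefty1*, *Gdf3*, *Tdgf1* and *Zfp42*, were genes of the pluripotent cells, whereas *Tagln* and *Hoxb5os* were highest in intermediate cells, at 72.9 and 37.4 CPM.

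Promoters are shown for *Alas2*, *Gfi1b* and *Hba-x* of the blood lists, the vessel genes *Kdr* and *Gja4* and the shared factor *Etv2*, to set letters that GATA and ETS factors are known to bind beside the genes that carry the comparison. These 6 were chosen after the letters were seen, each with one kind of match, whereas *Tek*, *Emcn* and *Hba-a1* held both kinds and *Gata1* the ETS letters alone. Each run covers 250 bases before to 50 after the start in RefSeq on GRCm38.p6, written 5′ to 3′ on the gene's strand, with the match in capitals. The motif searched was AGATAA or TGATAA for GATA and CCGGAA or CAGGAA for ETS, on both strands, and no string of one set contains a string of the other.
*Alas2* (chrX:150547167-150547466, plus strand, GATA): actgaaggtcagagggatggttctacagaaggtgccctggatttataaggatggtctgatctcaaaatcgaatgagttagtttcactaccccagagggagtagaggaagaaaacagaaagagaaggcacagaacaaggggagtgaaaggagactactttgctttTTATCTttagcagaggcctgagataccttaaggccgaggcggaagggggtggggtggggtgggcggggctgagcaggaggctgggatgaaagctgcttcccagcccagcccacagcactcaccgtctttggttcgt
*Gfi1b* (chr2:28621933-28622232, minus strand, GATA): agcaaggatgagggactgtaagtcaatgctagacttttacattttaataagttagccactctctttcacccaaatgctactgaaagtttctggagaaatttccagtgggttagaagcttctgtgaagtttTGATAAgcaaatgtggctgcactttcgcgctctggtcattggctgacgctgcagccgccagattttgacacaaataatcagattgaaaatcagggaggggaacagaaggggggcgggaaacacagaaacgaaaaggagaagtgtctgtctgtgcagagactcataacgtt
*Hba-x* (chr11:32276350-32276649, plus strand, GATA): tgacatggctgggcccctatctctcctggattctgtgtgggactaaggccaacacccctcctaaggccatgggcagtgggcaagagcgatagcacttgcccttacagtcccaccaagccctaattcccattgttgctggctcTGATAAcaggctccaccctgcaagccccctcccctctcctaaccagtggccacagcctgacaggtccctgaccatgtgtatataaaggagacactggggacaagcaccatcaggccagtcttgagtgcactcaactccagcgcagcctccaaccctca
*Kdr* (chr5:75978406-75978705, minus strand, ETS): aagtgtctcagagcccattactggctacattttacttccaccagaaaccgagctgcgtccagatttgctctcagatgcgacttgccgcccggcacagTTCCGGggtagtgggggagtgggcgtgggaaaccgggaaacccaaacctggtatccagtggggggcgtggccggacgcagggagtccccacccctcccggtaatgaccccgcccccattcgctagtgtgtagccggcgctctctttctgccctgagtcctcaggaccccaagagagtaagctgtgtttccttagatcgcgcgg
*Gja4* (chr4:127313990-127314289, minus strand, ETS): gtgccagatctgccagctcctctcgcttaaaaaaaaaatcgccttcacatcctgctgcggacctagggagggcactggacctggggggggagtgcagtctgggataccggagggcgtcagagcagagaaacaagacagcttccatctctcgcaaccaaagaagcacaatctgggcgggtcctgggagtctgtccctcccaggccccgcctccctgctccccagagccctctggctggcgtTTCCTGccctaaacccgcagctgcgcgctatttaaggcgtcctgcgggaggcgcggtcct
*Etv2* (chr7:30635803-30636102, minus strand, ETS): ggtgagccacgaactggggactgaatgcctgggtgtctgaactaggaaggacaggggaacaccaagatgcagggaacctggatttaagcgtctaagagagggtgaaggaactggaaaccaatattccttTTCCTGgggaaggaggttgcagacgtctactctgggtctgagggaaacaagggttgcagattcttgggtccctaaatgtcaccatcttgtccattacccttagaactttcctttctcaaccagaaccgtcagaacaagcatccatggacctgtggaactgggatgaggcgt

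A gene was counted where any of its promoters in RefSeq held the letters. The GATA letters were in 20.96% of all 27025 genes, in 8 of the 15 leading genes that had an entry (53.3%), in 9 of 13 erythroid genes (69.2%), in 4 of 11 pan-endothelial genes (36.4%) and in 3 of 11 blood lineage factors (27.3%). The ETS letters were in 44.7% of all genes, in 8 of the 15 leading genes, in 6 of the 10 lowest genes that had an entry (60%), in 9 of 11 pan-endothelial genes (81.8%), in 3 of 13 erythroid genes (23.1%) and in 6 of 11 blood lineage factors (54.5%). With the first promoter of each gene alone, the pan-endothelial counts were 2 for GATA and 8 for ETS, and the blood factors held ETS letters in 4. A match is a description of the letters and no evidence that a factor binds there. *Hbb-bh1*, *Cdh5*, *Spi1* and *Csf2rb* had no entry.

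Endothelial genes and blood factors were found in the same cells as well as in different ones, and the balance between these turned on depth. After thinning to 4000 UMIs, 58.2% of the 507 cells had UMIs of at least 3 pan-endothelial genes. Of the 507 cells, 18 (3.55%, interval 2.12 to 5.55) also had at least 3 blood lineage factors, and 30 had the blood factors without the endothelial genes. Unthinned, 166 cells (32.7%) had 3 or more genes of both lists and 23 had the blood factors without the endothelial genes, at median depths of 15083 UMIs here and 11892 in intermediate cells. In intermediate cells both lists were met by 0 of 6211 thinned cells and by 0.145% unthinned. Blood factors were found in 6.10% (3.66 to 9.47) of the 295 thinned cells with the endothelial genes and in 14.2% (9.76 to 19.6) of the 212 without them. Unthinned, the shares were 36.5% of 455 cells (32.1 to 41.1) and 44.2% of 52 (30.5 to 58.7). The intervals did not overlap after thinning and overlapped without it. With other minimums the unthinned shares were close, at 54.5% and 53.8% for 2 genes of each list and 15.1% and 15.3% for 5. The thinned shares for 2 genes were 19.7% (15.8 to 24.04) and 35.7% (27.4 to 44.7), with intervals apart. For 5 genes they were 0% and 0.590%, with overlapping intervals. After thinning blood factors were thus found in a smaller share of the cells with 3 endothelial genes, and at full depth no such difference was seen beyond counting error.

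For erythroid genes 33 thinned cells (6.51%) had both and 89 the erythroid genes alone. That list includes widely used genes such as *Car2* and *Tfrc*, and 2.82% of thinned intermediate cells had 3 of its genes, against 24.1% of the labelled cells. Of the shared factors, 114 thinned cells (22.5%) had both and 19 the shared factors alone. *Sox18* and *Erg* are on both of these lists, so a UMI of either counted toward each list. Part of this overlap was thus built in. For pan-leukocyte genes 11 thinned cells had both and 15 the leukocyte genes alone. Erythroid genes were found in 11.2% (7.83 to 15.4) of thinned cells with the endothelial genes and 41.98% (35.3 to 48.9) of those without. Unthinned the shares were 62.4% (57.8 to 66.9) and 80.8% (67.5 to 90.4), and the cells with both numbered 284 for erythroid genes, 350 for the shared factors and 83 for pan-leukocyte genes, as 455 of the 507 cells then had the endothelial genes. The intervals of the erythroid shares, which cover counting error only, did not overlap at either depth with at least 3 or 5 genes of each list. With at least 2 genes they did not overlap after thinning. Unthinned they did, at 85.2% (81.8 to 88.2) with the endothelial genes and 100% (75.3 to 100) of 13 cells without. The label was made from the same counts, so these intervals are a description and no test. With 3 genes, unthinned, the order was the other way in intermediate cells (38.8% with, 21.3% without) and pluripotent cells (42.9% and 28.0%). In BMP4+ labelled cells the shares were 73.5% and 54.4% unthinned, and 15.9% and 24.8% thinned. Summed over the pan-endothelial list, a labelled BMP4- cell held a median of 1099 CPM, with 202 at the 5th and 3807 at the 95th percentile.

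Pairs of single genes showed which transcripts went together. *Gfi1b* had a UMI in 22.1% of the 299 cells with *Kdr* and in 44.7% of those without, and in 6.36% and 21.6% after thinning. *Etv2* went with *Kdr*, at 26.01% of thinned cells with *Kdr* and 8.08% of those without. *Spi1* went with *Gfi1b*, at 30.1% and 10.6%. *Cd34* went with *Cdh5*, at 25% and 7.73%. *Spi1* was close in thinned cells with and without *Cdh5*, at 15% and 13.6%, but unthinned it was in 38.2% and 27.8%. In these pairs *Kdr* thus went with *Etv2*, *Cdh5* with *Cd34* and *Gfi1b* with *Spi1*, whereas *Gfi1b* was less frequent in cells with *Kdr*. Doublet calling marked 0 of the 507 cells and only 4 cells of the whole sample, too few to be of use, and the part of doublets in cells with both kinds of transcript was not tested.

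**Figure D2:**
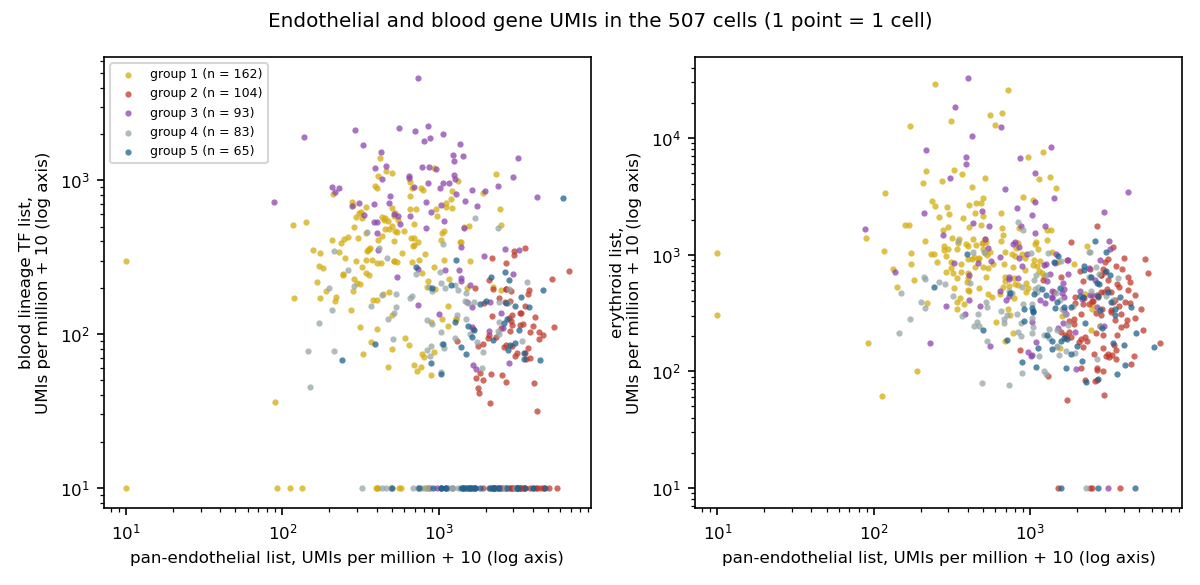
Each point is 1 of the 507 cells, placed by its CPM of the pan-endothelial list (x, log axis, plus 10) and of the blood lineage factor list (left) or erythroid list (right; y, log axis, plus 10), coloured by the 5 groups of the clustering. Groups 2 and 5 (104 and 65 cells) sit at the right and low, and groups 1 and 3 (162 and 93 cells) lie further up and to the left. Group 4 (83 cells) had summed pan-endothelial, blood factor and erythroid levels of 1068, 123 and 476 CPM, against 1154, 778 and 2224 in group 3.

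Clustering of the 507 cells alone gave 5 groups. The genes that set the groups apart also defined them, so their values are a description. Of 11599 genes, 4.22%, 6.58%, 4.12%, 5.88% and 9.94% were at least 2-fold above the other labelled cells in groups 1 to 5. The list counts of genes above are to be read beside these shares. The share of all genes at least 2-fold below was not counted, so the list counts of genes below have no such background. Group 2 (104 cells, 20.5%) was endothelial-like, since 19 of the 23 measured pan-endothelial genes were at least 2-fold above the other labelled cells, with *Kdr* at 283, *Cdh5* at 151, *Cd34* at 98.9 and *Pecam1* at 57.2 CPM. It was led by *Tmem204*, *Pde4b*, *Slco3a1*, *Epas1*, *Kcna5*, *Bcl6b*, *Cd93* and *Klhl3*, of which *Epas1* is a hypoxia factor of endothelium and *Bcl6b* and *Cd93* are endothelial genes. Its blood factors were low, with *Gfi1b* at 3.21 and *Spi1* at 11.8 CPM. This group thus combined the junction genes with a low level of red-cell transcripts, *Hbb-bh1* at 2.67 CPM.

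Group 5 (65 cells) shared the high *Kdr* of group 2 with some of its endothelial genes low and others high. *Kdr* stood at 344, *Etv2* at 315, *Lmo2* at 583 and *Tal1* at 130.5 CPM. *Cdh5*, *Cd34* and *Pecam1* stood at 6.64, 7.74 and 2.21 CPM, whereas *Cldn5* and *Esam* stood at 474 and 78.5. Of 23 pan-endothelial genes 4 were at least 2-fold above and 9 at least 2-fold below the other labelled cells, and the list summed to 2082 CPM against 1378. Of the 5 groups, this one had the highest *Etv2*, *Lmo2* and *Tal1* and the lowest *Cdh5*. The group was led by *Msmp*, *Adam33*, *Lax1*, *Scube1*, *Krt23*, *Mmp17*, *Tm4sf4* and *Mdga1*. Of 14 measured fibroblast genes 8 were at least 2-fold above and 3 at least 2-fold below the other labelled cells. No name was given to it, as no cell type list covered its leading genes.

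Summed levels of red-cell transcripts were high in groups 1 and 3 and those of myeloid transcripts in group 3. Group 3 (93 cells) was led by *Cd52*, *Ncf1*, *Lcn2*, *Cebpe*, *Fcer1g*, *Tyrobp*, *Prtn3* and *Sla*, genes of myeloid cells and granules for the most part. In it, *Spi1* stood at 215, *Gfi1b* at 157, *Runx1* at 57.1 and *Hbb-bh1* at 653 CPM, and 11 of 14 blood factors and 7 of 8 pan-leukocyte genes were at least 2-fold above the other labelled cells. Of the labelled cells' 91 *Lyz2*, 94 *S100a8* and 56 *Prg2* UMIs, 90, 92 and 56 were in this group, each in 6.45% of its cells. *Cdh5* and *Pecam1* were still present there at 61.5 and 57.7 CPM, while *Kdr* stood at 106. Myeloid, red-cell and junction transcripts were thus measured in the same group, which was left unnamed. At resolution 1, 47 of its cells fell into a group with blood factors at 1142 and pan-endothelial genes at 731 CPM in sum and 39 into one at 299 and 1082, so that the mixture rested in part on the resolution. Group 1 (162 cells) was led by *Svs6*, *Svs5*, *Ins2*, *Asic4*, *Aqp8*, *Cyp17a1*, *Otub2* and *Kcnip1*, which belong for the most part to neither lineage. For the pair of them with UMIs counted per cell, 1 cell held 1498 of the 3443 *Ins2* UMIs of all labelled cells and 1 cell held 798 of the 3447 *Svs5* UMIs. Its *Gata2*, *Gfi1b* and *Hba-a1* stood at 71.4, 97.4 and 737 CPM, and 10 of 15 erythroid genes were at least 2-fold above the other labelled cells. Of 14 blood factors 3 were above and 2 below by that measure, and of 8 pan-leukocyte genes 1 and 2. Of its 162 cells 100 had 0 globin UMIs, as had 45 of the 93 cells of group 3. At resolution 1, 45 and 36 of the 162 cells fell into groups with erythroid genes at 924 and 613 CPM in sum and 51 and 29 into groups at 2807 and 5617, so that the red-cell level did not describe all of group 1. Its *Kdr* and *Cdh5* were low at 38.4 and 19.8 CPM. Group 4 (83 cells) had 21 genes at least 4-fold above the other labelled cells in 10% or more of its cells, the fewest of the 5 groups, with *Cldn5* at 328 and *Kdr* at 56.3 CPM. The median UMIs per cell ran from 13533 in group 5 to 16118 in group 2.

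**Figure D3:**
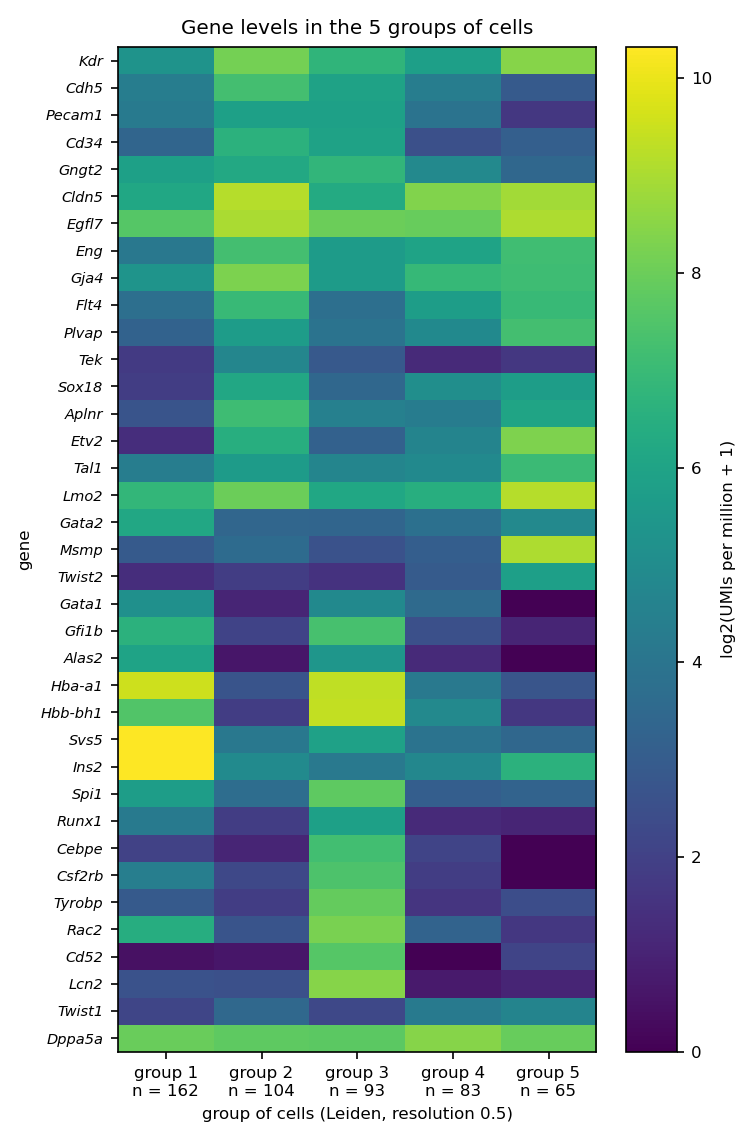
Level of 37 genes (rows) in the 5 groups of cells (columns, with n), as log2 of CPM plus 1. *Cdh5* is brightest in group 2 (151 CPM), *Etv2* in group 5 (315) and *Spi1* in group 3 (215).

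A coarser clustering split the cells into 301 and 206, along the same line of blood against vessel genes. The 301 cells had *Gfi1b* at 100.3 and *Kdr* at 57.7 CPM, and the 206 cells had *Gfi1b* at 2.09 and *Kdr* at 268. All 8685 cells were also clustered, at the single setting of Leiden resolution 1 with 30 principal components. Of the 507 cells, 269 then fell into one cluster of 271 cells and 232 into another of 239, and 6 lay elsewhere. Of the 501 cells in those clusters, 471 were on the same side as in the coarser clustering. At this setting the labelled cells lay apart from nearly all other cells of the sample and mostly in 2 clusters. The label was made from the same counts, so their lying apart is a description and no test. The number of clusters rests on the resolution.

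Most globin UMIs came from few cells. *Hbb-bh1* had 1565 UMIs in 60 cells, and the 10 cells with the most held 72.3% of them. For *Hbb-y*, 234 of 360 UMIs came from 1 cell. By contrast, the 10 highest cells held 14.1% of *Kdr* and 19.4% of *Gfi1b* UMIs, so those genes did not rest on single cells. Of the 507 cells, 367 had 0 UMIs of the 5 embryonic and alpha globins, 75 had 1 to 4, 40 had 5 to 49 and 25 had 50 or more. The 25 cells were 13 of group 1 and 12 of group 3. From the first to the last of these classes, *Kdr* was at 168, 127, 47.7 and 26.5 CPM, and *Gfi1b* was at 35.4, 55.9, 183 and 183. Cells rich in globin were thus low in *Kdr* and high in *Gfi1b*. Without the 10 cells with the most globin UMIs, *Hbb-bh1* stood at 96.3 CPM (log2 ratio 6.61), *Hba-x* at 20.04 and *Hbb-y* at 3.05, while *Gfi1b* and *Kdr* stood at 59.5 and 145. The log2 ratio of *Hbb-bh1* was then below those of *Gfi1b*, *Alas2* and *Svs5*, at 7.04, 6.89 and 6.82.

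The same annotation in the BMP4+ sample covered 1453 cells, 12.8% of that sample. Of 14184 genes, 431 (3.04%) were at least 4-fold higher in the BMP4- labelled cells and 707 (4.98%) at least 4-fold lower. The median log2 ratio over these genes was -0.41. Over genes with at least 50 UMIs in both it was -0.44, and with scaling to that median the split was 662 higher and 387 lower. Between the intermediate cells of both samples, 777 genes were at least 4-fold higher without BMP4 and 2059 were at least 4-fold lower. The counts covered 20695 genes in all. How many of them had enough UMIs in intermediate cells is not given here, so no share stands beside 777 and 2059. The overlap that these unequal numbers alone would give was not tested. Part of the difference was not particular to the labelled cells. Of the 431 genes 189 (43.9%), and of the 707 genes 331 (46.8%), were past 4-fold in the same direction between intermediate cells. *Dppa5a*, a gene of pluripotent cells, was among those furthest apart, at a log2 ratio of 9.41 here and 5.86 between intermediate cells. *mt-Co3*, a mitochondrial gene, had 8749.6 CPM in BMP4- and 37.7 in BMP4+ labelled cells, and *Atp6v0c*, a proton pump subunit, had 3.09 and 631. Between intermediate cells their log2 ratios were 7.58 and -8.85. A further gene, *AY036118*, had 1601 UMIs in BMP4- and 0 in BMP4+ labelled cells. For *Dppa5a*, *mt-Co3* and *Atp6v0c* the difference was thus also found between intermediate cells in the same direction. Whether both samples were counted against the same gene models was not tested. BMP4, culture, library and counting cannot be told apart in the values that follow.

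The labelled cells of both samples were compared next, and *Kdr*, *Cdh5*, *Cd34* and *Pecam1* were each within 4-fold between them. *Cdh5* was at 55.5 CPM against 179 with BMP4, *Cd34* at 38.1 against 152 and *Pecam1* at 31.8 against 103. *Hbb-bh1* was at 186 against 24.2, *Hba-x* at 83.1 against 38.9, *Hbb-y* at 42.8 against 8.64 and the alpha globin *Hba-a1* at 352 against 17.8. Without the 10 BMP4- cells richest in globin, *Hbb-bh1* at 96.3 and *Hba-a1* at 173 were still above the BMP4+ level, whereas *Hba-x* at 20.04 and *Hbb-y* at 3.05 were below it. All BMP4+ cells were kept here, so a fall of the BMP4- levels was built in. The order for *Hba-x* and *Hbb-y* therefore decides nothing. *Etv2* was at 59.9 against 13.3. *Kdr* was closer, at 141 against 203 CPM, a log2 ratio of -0.52 beside the shift of all genes. As lists, 0 of 24 pan-endothelial genes were at least 4-fold higher and 3 were lower, and of 17 erythroid genes 4 were higher and 1 was lower. The erythroid count was not repeated without the 10 globin-rich BMP4- cells, which held 57.3% of the globin UMIs of the BMP4- labelled cells. Of 13 macrophage genes 7 were lower and none higher, with the complement gene *C1qb* at 1.07 CPM against 12.2. Macrophage UMIs lay in few cells of both sets, with 78.2% in 10 of the 1453 BMP4+ cells and 58.5% in 10 of the 507 BMP4- cells. Without the 10 BMP4+ cells, and with every BMP4- cell kept, 2 of 10 genes were lower and 1 was higher. As cells were left out on the BMP4+ side only, a fall in the count of lower genes was built in and decides nothing. Per cell, the 95th percentile of the list was 251 CPM without BMP4 and 173 with it, and the median was 0 in both. Of 19 pluripotency genes 11 were higher and none lower, in a sample that also held the 1825 pluripotent cells.

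Each labelled set was also set against the intermediate cells of its own sample, a comparison within 1 library. The log2 ratio for *Kdr* was 5.32 without and 5.83 with BMP4, and for *Tie1* it was 5.71 and 5.93. For *Hbb-bh1* it was 7.61 and 7.40. Ratios differed more for *Gata2*, at 4.0 and 0.67, and for *Runx1*, at 2.21 and 0.22, and BMP4+ intermediate cells themselves held 48.95 CPM of *Gata2* and 53.7 of *Runx1*, against 1.94 and 3.74 without BMP4. For *Emcn*, an endothelial sialomucin, the ratio was 2.61 without BMP4 and 6.60 with it.

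**Figure D4:**
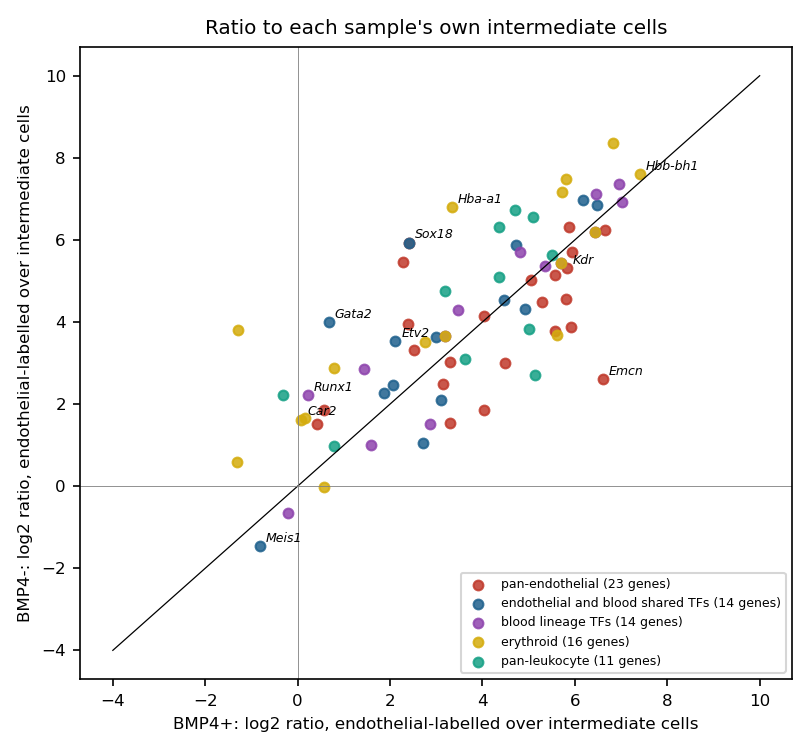
Each point is 1 gene of 5 lists, placed by its log2 ratio of endothelial-labelled over intermediate cells in the BMP4+ sample (x) and in the BMP4- sample (y), with the line of equality; a gene in more than one list is drawn once per list, and genes with too few UMIs for a ratio are left out. *Kdr* lies near the line (5.83 and 5.32), *Gata2* above it (0.67 and 4.0) and *Emcn* below it (6.60 and 2.61).

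Bulk RNA-seq of JGES cultures, in libraries that the annotation did not use, gave the same genes over time, as FPKM (fragments scaled to transcript length and library size) with 1 library per day and condition. In bulk, fewer cells of a type and less RNA per cell cannot be told apart. Without BMP4, *Kdr* stood at 3.68, 5.10, 15.1, 12.3 and 13.99 FPKM at days 0, 1, 3, 5 and 7. *Etv2* was listed at 0 at day 0 and stood at 2.23, 13.98, 2.16 and 6.01 FPKM at days 1, 3, 5 and 7. *Cdh5* stood at 0.499, 0.482, 0.770, 8.26 and 4.72 FPKM at the same days. The highest *Etv2* and *Kdr* values were thus at day 3 and the highest *Cdh5* value at day 5. *Tal1* stood at 1.28, 3.19 and 1.69 FPKM at days 3, 5 and 7, and *Gfi1b* was listed at 0 through day 3 and stood at 2.76 and 1.67 at days 5 and 7. *Hbb-bh1* was listed at 0 in every BMP4- library.

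With BMP4, *Cdh5* stood at 8.91 and 12.6 FPKM at days 5 and 7, *Cd34* at 12.2 at day 7 against 1.45 without BMP4, and *Kdr* at 11.7 at day 7. *Etv2* was highest at day 5 with BMP4, at 5.51 FPKM. Over the 25 leading genes, the median difference in log2(FPKM + 1) between day 7 and day 0 was 0.80 without BMP4 and 1.10 with it, where the median of all 35976 genes was 0. Without BMP4, 12 of the 25 were at least 2-fold higher at day 7 than at day 0 on that scale and 0 were at least 2-fold lower. Of all genes 9.25% were higher and 4.32% lower, and of the 15004 genes that reached 1 FPKM on one of these days 22.2% and 10.4%. Of 24 pan-endothelial genes, 11 were at least 2-fold higher and 3 lower without BMP4, and 16 higher and 1 lower with it, where 7.09% of all genes were higher and 3.83% lower (17.5% and 9.47% of genes that reached 1 FPKM). Of the pan-endothelial genes, 19 reached 1 FPKM at day 0 or at day 7 without BMP4, and 11 of these were higher and 3 lower. Of the blood lists without BMP4, 3 of 14 blood lineage factors were higher and 1 lower, 5 of 19 erythroid genes were higher and 1 lower, 1 of 12 pan-leukocyte genes was higher and 2 lower, and of 15 macrophage genes 0 were higher and 1 was lower. Of 15 factors shared by endothelium and blood 8 were higher and 3 lower. Changes on this scale are understated for genes with low FPKM, and with 1 library per point there is no replicate check.

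**Figure D5:**
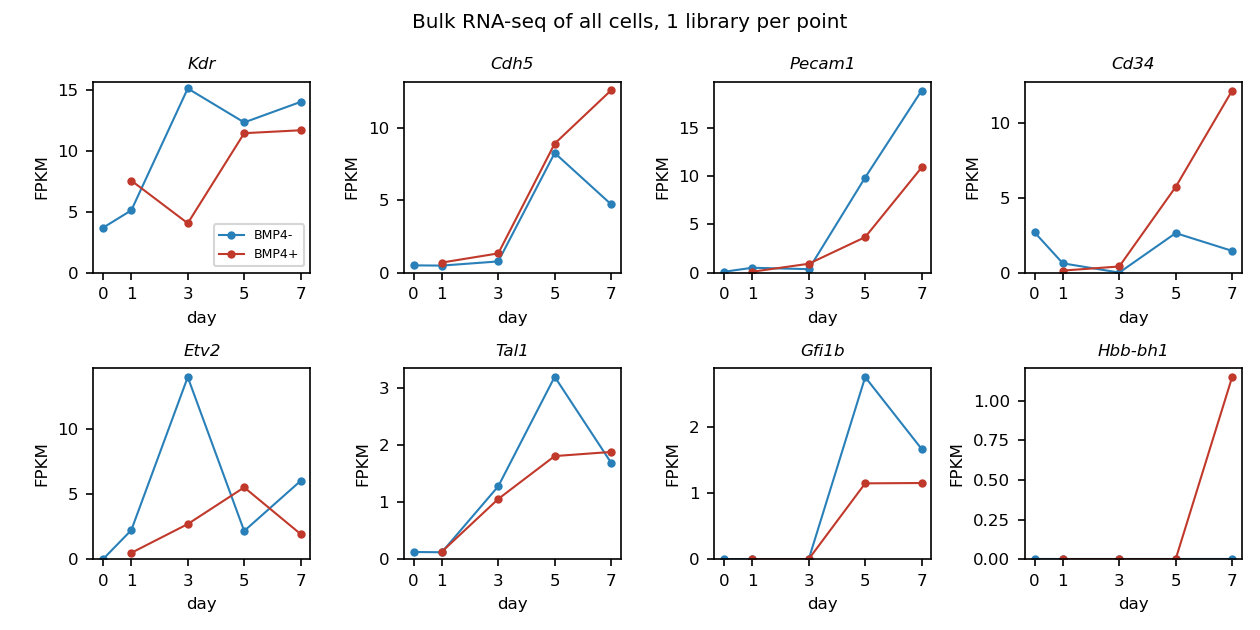
FPKM of 8 genes (y) by day (x) in bulk RNA-seq of JGES cultures without (blue) and with (red) BMP4, 1 library per point; day 0 was used for BMP4- only. *Etv2* without BMP4 peaks at day 3 (13.98) and *Cdh5* at day 5 (8.26), and *Hbb-bh1* is above 0 only with BMP4 at day 7 (1.15).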

How the data were processed

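The authors aligned the single-cell reads to mm10 with the STARsolo function of STAR and GENCODE vM21 gene models, filtered cells with Scanpy and deposited raw UMI counts per gene and cell with an annotation in each cell name. Columns of other work in that table (10749) were not used. For bulk RNA-seq the authors deposited FPKM per gene, made after Trim Galore 0.6.4 with HISAT2 2.2.1 and StringTie 2.2.1 per the submitters' processing notes, and the time course and the factor-set table were normalised separately. The ATAC-seq, Cut&Tag and SALL4 libraries were not used here.

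Here counts were summed per annotation and scaled to CPM, with no test because each condition was 1 sample. A gene at 0 UMIs was set to a floor of 3 counts before a ratio was taken. Of the steps, only the count of genes past 4-fold was checked on simulated data, with Poisson counts. Cells were thinned to 4000 UMIs at random, fewer than any cell held. Groups came from log-normalised counts, 2000 variable genes, 20 principal components, 15 neighbours and Leiden resolution 0.5 (scanpy 1.11.5). Named genes were the 5 markers, the 25 highest and 15 lowest ratios of genes detected in 10% or more of the labelled or of the other cells, the 10 highest and lowest against BMP4+ labelled cells, 8 leading genes per group and genes of fixed lists. Members and lists were chosen with earlier results of these data known. Scrublet marked 4 of 8685 cells (0.0461%) and so did not work, and the 6% of cells with the highest scores were left out instead as an alternative. Other alternatives were equal weight per cell, thinning, scaling to the median ratio, other UMI minimums, intermediate cells as reference, leaving out the 6% of cells with most UMIs, other list minimums, other clusterings, another pseudocount and an FPKM minimum. Leaving out the 10 cells with most globin UMIs, or the BMP4+ cells with most macrophage UMIs, was chosen after seeing the data.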

Additional observations from a re-analysis of the deposited data

How the results depend on the processing

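All 25 leading genes stayed at least 4-fold higher under every alternative tried. They were picked as the highest ratios of the same counts, with log2 ratios of 5.71 or more, so this was nearly fixed in advance. Of the 5 markers and 15 lowest genes 3 changed direction. Against intermediate cells alone, *Fthl17c*, *Platr3* and *Zfp42* turned to log2 ratios of 0.16, 0.16 and 0.23, since their high reference was the pluripotent cells that this alternative leaves out. The count of genes higher than in other BMP4- cells was 230 with at least 100 UMIs, where fewer genes enter, and the count of lower genes was 473 after thinning to 4000 UMIs. Against BMP4+ labelled cells, thinning gave 243 higher genes, and scaling to the median ratio gave 662 higher and 387 lower, which turned the balance from more lower to more higher genes.

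The share of cells with both pan-endothelial and blood lineage factor genes was 14.8%, 0% and 32.7% with at least 2 genes, at least 5 genes and without thinning. In the same order it was 32.7%, 0.197% and 56.0% for erythroid genes, 8.88%, 0% and 16.4% for pan-leukocyte genes and 41.6%, 4.14% and 69.0% for the shared factors. The shared factors have *Sox18* and *Erg* in common with the pan-endothelial list. The share of cells with pan-leukocyte genes was lower by 3.35 percentage points in thinned cells with endothelial genes than in those without, and higher by 2.86 points unthinned. Leiden resolution 0.25 gave 2 groups and resolution 1 gave 8, and clustering of the whole sample, at resolution 1 only, placed nearly all the cells in 2 clusters. In bulk, the median log2 differences of the 25 leading genes were 1.78 (day 7 BMP4- over day 0), 3.14 (BMP4+ over day 0) and 0.26 (BMP4+ over BMP4- at day 7) with pseudocount 0.1, and 1.34, 1.41 and 0.29 with an FPKM of at least 1. For day 7 BMP4- over day 0 with pseudocount 0.1, 2 of 15 macrophage genes were at least 2-fold higher and 10 lower. Of 12 pan-leukocyte genes 3 were higher and 6 lower, of 14 blood lineage factors 5 and 1, and of 19 erythroid genes 8 and 2. Of all 35976 genes 6422 were higher and 3036 lower on that scale. Without the 10 cells with most globin UMIs, 500 genes were higher and 851 lower. Of macrophage genes, 7 were lower than in BMP4+ labelled cells, 6 without the BMP4+ cell with most macrophage UMIs and 2 without the 10 such cells. No BMP4- cells were left out in turn, so this fall was built into the choice of cells. The cause of the shifts under thinning and pseudocounts was not tested. No paired analysis was possible because each condition had 1 sample and no result comes from a test.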
